A study of Dugesia japonica with 19 samples.

Results

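The comparison described here sets head pieces of the planarian Dugesia japonica against trunk pieces at 51 well covered sites of N6-methyladenosine (m6A), out of 5847 sites listed in the whole series. A site is an assembled transcript contig, a position in bases from the contig's start and a strand. It was taken when head and trunk each had at least 20 reads there on the same day, on at least 3 of the 6 days. The rule uses read numbers and not methylation, although a site had to be listed in both tissues to have reads. The 51 sites lie on 26 contigs and give 247 pairs of a head and a trunk library. Of these sites, 14 were paired on all 6 days, 23 on 5 days, 6 on 4 days and 8 on 3 days. Only 128 sites had 20 reads in both tissues on any day, and 76 on at least 2 days. Contigs and sites listed in 1 of the 2 tissues only are described after the shared sites.

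For each pool, 10 to 20 animals were cut into head, trunk and tail, and pieces of a kind were mixed before RNA extraction. Messenger RNA was enriched with poly(T), treated with MazF and sequenced on days 0, 1, 3, 5, 7 and 10, with 1 head and 1 trunk library per day. All tissue libraries were set against 1 control library of intact animals copied by in vitro transcription (IVT), which carries no modification. The series asks how m6A differs along the head to tail axis over these days, and head against trunk covers its front. The labels give no strain, drug or RNA interference, and do not say how the day of cutting relates to the days given. Whether head and trunk were prepared together is not stated, so tissue and preparation cannot be told apart. The labelled tissue could not be checked against marker genes, since the contigs carry no gene names. In pooled pieces, a change in the cells present and a change within cells cannot be told apart.

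m6A is the most common internal mark of messenger RNA. A writer complex built around METTL3 and METTL14 places it, and YTH-domain proteins read it and alter splicing, export, translation or decay of the RNA. MazF is a bacterial endoribonuclease that cuts at ACA when its first adenosine is unmethylated and leaves the methylated motif whole, so m6A-REF-seq reads methylation base by base from the share of uncut reads. Planarians rebuild missing body parts from stem cells called neoblasts, which lie through the trunk and tail and are missing from the region in front of the eyes and from the pharynx.

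Each value below is the uncut share, which is the number of uncut reads over all reads at the site. The m6A level that the authors deposited is this share minus the share in the control. The control counts of a site were the same in every table, so a head minus trunk difference is the same number for the share and for the level. A site enters a list only when its level is at least 0.1, so a share below the control's share plus 0.1 is never seen. Taken over reads, counting error was mostly small at these sites. The 95% Wilson interval of a library's share had a median width of 0.0403 in head and 0.0225 in trunk, with a largest width of 0.378 in head and 0.253 in trunk. These intervals cover counting error only. They may be too narrow even for that, because reads without molecular identifiers are not independent molecules.

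Reads at listed sites ranged from 12100 to 466710 per library in head and from 112555 to 834034 in trunk. The head library of day 10 was the shallowest, and only 22 of the 51 sites were paired on that day. Total sequencing depth is unknown, because only listed sites were counted. No 2 libraries had more than 1.05% of their counts in common, so none repeated another.

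Head RNA was cut more often than trunk RNA at most of the shared sites. The mean difference lay below 0 at 38 sites, above 0 at 7 and at 0 in 6. Across the 247 pairs, head was lower in 175, higher in 32 and equal in 40. Head lay below trunk on every paired day at 27 sites and above it on every paired day at 1. At 23 sites (45.1%) all head days were below all trunk days, and at 1 site (1.96%) all were above. These percentages were taken over the well covered sites only. The same was not counted over all sites listed in both tissues, so 45.1% cannot be set against a wider share.

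The difference passed the test at 25 sites on 17 contigs, all lower in head. That is 49% of the 51 sites by limma on paired differences, with Benjamini-Hochberg adjustment at 0.05. No site was higher in head by the same test, although 2 were at an unadjusted p under 0.05, beside 27 that were lower. A quasi-binomial model of the reads gave 26 lower (51%) and 2 higher (3.92%), and 21 sites were called by both methods. The share called over all 333 sites listed in both tissues on at least 3 days, with no read minimum, was 7.81% (26 sites lower, 0 higher by limma, 62 and 1 at an unadjusted p under 0.05). Of those 333 sites, 153 were identical in all pairs. Of the 25 called sites, 13 also passed in that wider table. The p-values given below over the 333 sites come from that wider fit, which was added after seeing the data and also uses days with fewer reads. Without the libraries of day 3, 13 sites were lower out of 46 that could be tested, and without day 1, 5 or 7 the counts were 17, 18 and 17. The days serve as replicates, and p-values therefore reflect differences among libraries, not among animals.

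Most of the called differences were small. Only 6 of the 25 sites differed by 0.3 or more, 12 by 0.1 or more and 13 by less than 0.1. The median difference was -0.0892 over the called sites and -0.0387 over all 51. In trunk, 20 of the 25 called sites had a mean share above 0.95, and in head 13 had a mean above 0.9. The spread over days was also wider in head at most sites. The median SD was 0.0220 in head and 0.00276 in trunk, and it was larger in head at 34 sites and in trunk at 11. A share close to 1 has little room to vary. The mean was 0.99 or more at 32 sites in trunk and at 16 in head, so spreads were not compared at like shares.

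**Figure D1:**
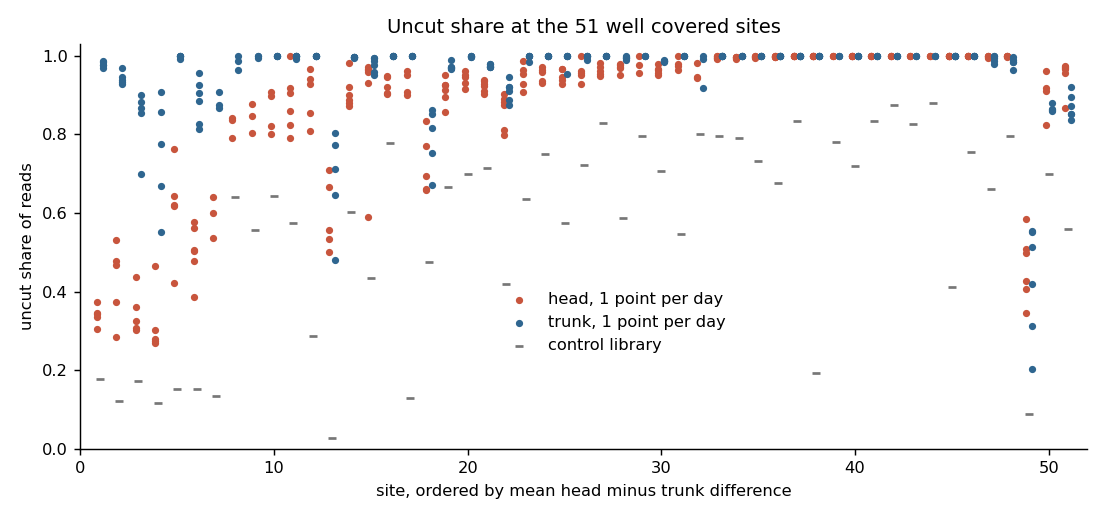
Uncut share of reads (vertical axis) at the 51 sites, ordered from left to right by the mean head minus trunk difference. Each red point is a head library and each blue point a trunk library of 1 day, and the grey dash is the control; head points lie under trunk points on the left, both tissues crowd near 1 in the middle, and 7 sites on the right have a mean difference above 0.

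Averaged over the sites paired on a day, the shift was present on all 6 days. The mean head share was 0.840, 0.839, 0.859, 0.874, 0.862 and 0.880 on days 0, 1, 3, 5, 7 and 10. In trunk it was 0.914, 0.946, 0.953, 0.963, 0.960 and 0.955. The lowest trunk value lay above the highest head value. Head minus trunk was -0.0893 ± 0.0126 (SD, n = 6 days; below 0 on 6 of 6 days; exact 2-sided sign-flip permutation p = 0.03125, the smallest the 64 flips can give; adjusted p = 0.0417 over 4 tests). The size depends on how sites are summed. The median over sites gave -0.0296, the 14 sites paired on all days gave -0.0514, and pooling all reads gave -0.200, where the sites with the most reads weigh the most. With a read minimum of 10 it was -0.0734, and the call was lost (exact permutation, adjusted p = 0.0625).

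More sites had at least 1 cut read in head than in trunk. To compare this at equal depth, each site was brought to the lower of its 2 read numbers by the hypergeometric formula. The percentage of sites with a cut read was then 80.4, 75.8, 78.9, 79.2, 79.1 and 55.9 in head on days 0, 1, 3, 5, 7 and 10. In trunk it was 51.1, 52.1, 46.1, 50.3, 48.2 and 44.9. Head was higher on each day, and its value on day 10 stood apart from its other 5. The difference was 26.1 ± 8.0 percentage points (SD, n = 6 days; exact 2-sided sign-flip permutation p = 0.03125; adjusted p = 0.0417). With a read minimum of 10 it was 24.1 points, and the call was lost (exact permutation, adjusted p = 0.0625). With reads as deposited it was 21.2 points and above 0 on 5 of 6 days (exact sign-flip p = 0.0625).

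**Figure D2:**
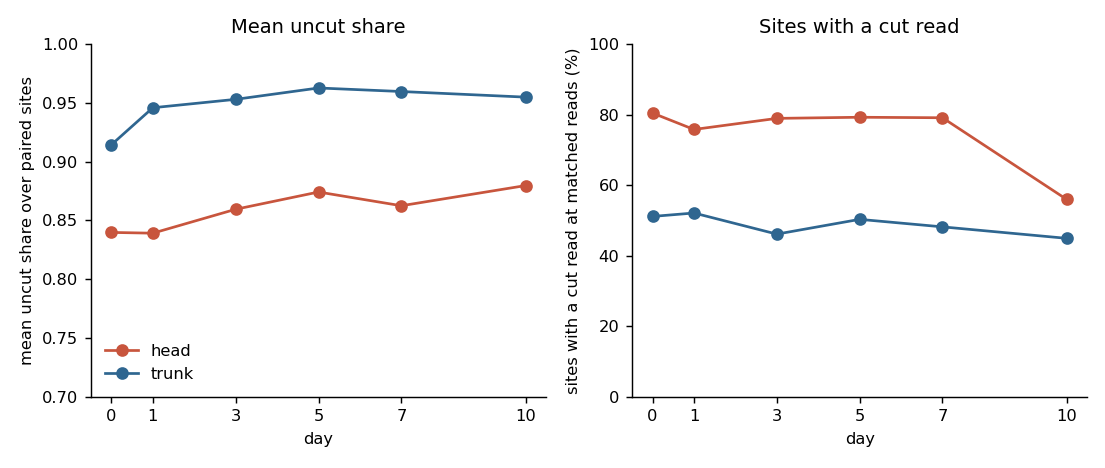
Left, mean uncut share over the sites paired on each day (the axis starts at 0.7); right, percentage of these sites with at least 1 cut read after read numbers were matched. Head is red and trunk blue, with 1 point per day: the trunk mean is the higher on the left and the head percentage the higher on the right on all 6 days.

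No relation of the difference with day or with reads passed its test. Across the 6 days its Pearson r with day was 0.249 and Spearman's rho -0.0286 (exact permutation p = 0.628 and 1 over 720 orders). With the log2 ratio of head to trunk reads, r was -0.734 and rho -0.543 (exact permutation p = 0.0875 and 0.297, adjusted p = 0.175 and 0.594 over 2 relations). Without the 2 days farthest from the median, r was 0.565 with day and -0.0444 with reads. The sign of both turned with the choice of sites, and the sites differ between days.

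The largest difference was on contig DN678_c0_g2_i4 at position 3263 of the minus strand. (Contig names are printed without their shared prefix TRINITY.) The head share was 0.346, 0.305, 0.374, 0.335 and 0.344 on days 0, 1, 3, 5 and 7. The trunk share was 0.988, 0.985, 0.976, 0.978 and 0.970. Each value rested on at least 4369 reads, and no head day came near any trunk day. Head minus trunk was -0.638 ± 0.0119 (SE; limma adjusted p = 6.78e-06 over the 51 sites and 2.15e-05 over the 333). The control share there was 0.179, so the head level was 0.162 and the trunk level 0.801. The lowest share that could be listed was 0.279, not far below the head values, and a lower head share would not be seen. No pair of day 10 was listed at this site, even with no read minimum.

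Position 448 of the same contig and strand showed the same direction. The head share was 0.284, 0.375, 0.477, 0.532 and 0.466 on days 0 to 7, and the trunk share 0.928, 0.968, 0.947, 0.934 and 0.937. Head varied more over days than trunk, and the ranges were far apart. The difference was -0.516 ± 0.0414 (SE; limma adjusted p = 0.00104, and 0.00626 over the 333 sites). The lowest share that could be listed was 0.222, and no pair of day 10 was listed here either.

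The other 4 sites with a difference of 0.3 or more lay on 4 further contigs. At DN11867_c10_g1_i1 position 745 (minus strand), head was 0.361, 0.301, 0.436, 0.325 and 0.307 on days 1, 3, 5, 7 and 10, and trunk 0.9, 0.698, 0.866, 0.882 and 0.855. The trunk value of day 3, on 63 reads, was low among its days but still above every head day. The difference was -0.494 ± 0.0312 (SE; limma adjusted p = 0.000591, and 0.00673 over the 333 sites). The lowest share that could be listed was 0.271, close under the lowest head day.

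At DN1290_c0_g1_i7 position 1951 (minus strand), head was 0.301, 0.280, 0.273, 0.465 and 0.270 on days 0, 1, 3, 5 and 7. Trunk was 0.552, 0.669, 0.774, 0.909 and 0.857 on the same days. The lowest trunk day, day 0, was above the highest head day, day 5. The difference was -0.434 ± 0.0526 (SE; limma adjusted p = 0.00475, and 0.00626 over the 333 sites). The lowest share that could be listed was 0.216, not far below the head values.

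At DN16393_c0_g1_i2 position 820 (minus strand), head was 0.763, 0.422, 0.644, 0.620 and 0.618 on days 0, 1, 3, 5 and 7. Trunk was 1 on days 0, 1 and 3, 0.993 on day 5 and 0.998 on day 7. The trunk values of days 0 and 1 rested on 23 and 48 reads. Trunk RNA was thus almost uncut on these days, while every head library of the same days held cut reads. The difference was -0.385 ± 0.0511 (SE; limma adjusted p = 0.00531). In the fit over the 333 sites, which here adds day 10 with fewer reads, it shrank to -0.320. Head was thus less far below trunk on day 10, if at all, than on the mean of the other days. The difference missed the threshold in that fit (limma adjusted p = 0.0578).

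DN24716_c0_g1_i1 position 153 (plus strand) was paired on all 6 days. Head ranged from 0.386 to 0.577 and trunk from 0.815 to 0.957, so the ranges were apart. The difference was -0.383 ± 0.0205 (SE; limma adjusted p = 7.51e-05, and 0.000278 over the 333 sites).

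**Figure D3:**
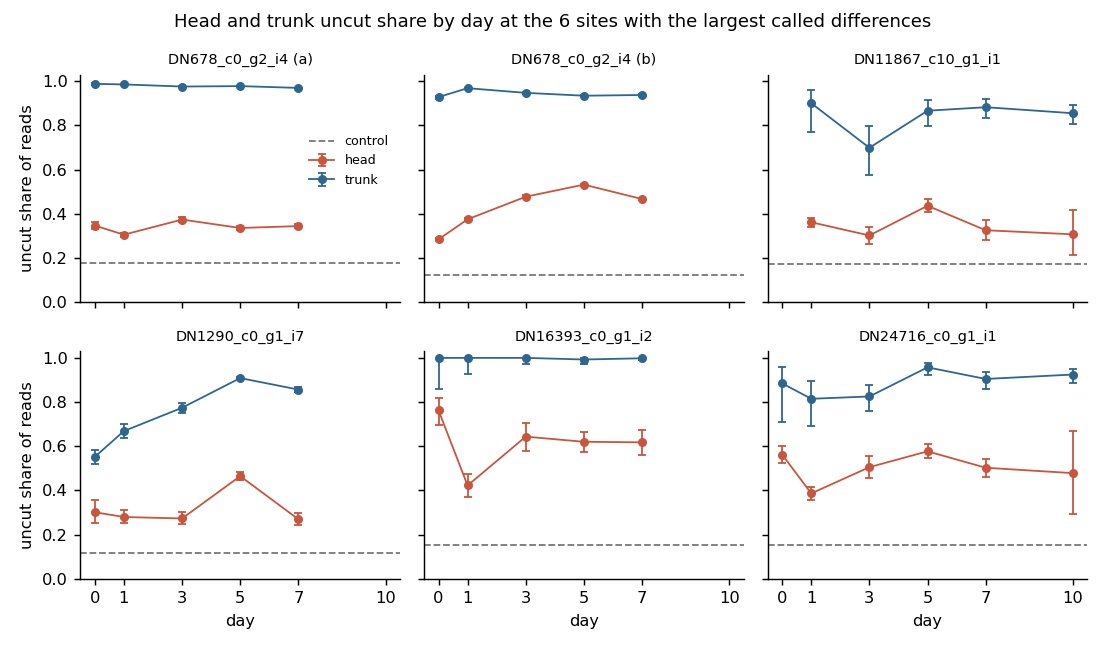
Uncut share of reads (vertical axis) by day (horizontal axis) at the 6 called sites with the largest differences; on DN678_c0_g2_i4, panel a is position 3263 and panel b position 448. Points are libraries (head red, trunk blue), bars are 95% Wilson intervals for counting error, and the dashed line is the control share; trunk lies above head on every day in all 6 panels.

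The next sites in order of size had fewer paired days. DN8704_c0_g1_i1 position 267 (minus strand) had a head share of 0.640, 0.600 and 0.536 and a trunk share of 0.909, 0.875 and 0.868 on days 3, 5 and 7, on 22 to 68 reads. Its ranges were apart, and the difference was -0.292 ± 0.0177 (SE; limma adjusted p = 0.00541, and 0.0173 over the 333 sites), but the call was lost in the quasi-binomial model (F test per site, adjusted p = 0.0640). DN11768_c0_g1_i6 position 431 (plus strand) had a head share of 0.792, 0.841 and 0.838 against 1, 0.986 and 0.964 in trunk on the same days. Its difference of -0.160 passed over the 51 sites but not over the 333 (limma adjusted p = 0.0212 and 0.135), nor in the quasi-binomial model (adjusted p = 0.0724).

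DN4102_c0_g3_i3 position 4531 (plus strand) had a head share of 0.803, 0.877 and 0.847 and a trunk share of 1, 1 and 0.995 on days 3, 5 and 7. The difference was -0.156 (limma adjusted p = 0.0193, and 0.0229 over the 333 sites). DN29714_c0_g1_i1 position 423 (plus strand) had a head share of 0.821, 0.801, 0.897 and 0.908 on days 1, 3, 5 and 7, while no trunk read was cut. The difference was -0.143 (limma adjusted p = 0.0191, and 0.0120 over the 333 sites). The call was lost without day 1 and without day 3 (limma adjusted p = 0.0627 and 0.0603). At both sites, as at the 8 before them, no head day reached a trunk day.

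Cut reads were seen in head and not in trunk at 7 sites, against 2 with cut reads in trunk only, 36 in both and 6 in neither. The mean cut share in head at those 7 ran from 0.00238 to 0.143, and 4 of them were called. Their trunk reads summed to between 92 and 37864. At the 6 sites with no cut read in either tissue, head reads summed to at least 203 and trunk reads to at least 105.

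No site was called higher in head, and the sites with a difference above 0 were few. DN155747_c0_g1_i1 position 554 (minus strand) was higher in head on each of its 5 paired days. Its head share lay between 0.996 and 0.999 and its trunk share between 0.963 and 0.996, so the ranges were just apart. The difference was 0.0150 ± 0.00467 (SE; limma adjusted p = 0.0504, and 0.288 over the 333 sites), which missed the threshold. It passed under 6 of the alternatives, among them the logit scale and the fit with no replicate block (limma adjusted p = 0.000205 and 0.0386) and the quasi-binomial model (adjusted p = 0.0101).

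The 2 sites that follow were chosen after their values were seen. DN1568_c0_g1_i6 position 2353 (plus strand) had a head share of 0.974, 0.969, 0.966, 0.970 and 0.955 on days 0 to 7 against 0.835, 0.852, 0.852, 0.896 and 0.872 in trunk. On day 10 the order turned, with 0.866 in head on 164 reads and 0.922 in trunk. The mean difference was 0.0788 ± 0.0271 (SE; limma adjusted p = 0.0533, and 0.165 over the 333 sites). DN155747_c0_g1_i1 position 339 (minus strand) was cut in both tissues, with a mean share of 0.461 ± 0.0853 (SD, n = 6 days) in head and 0.426 ± 0.144 in trunk. Head was the lower on 2 of 6 days, and the difference of 0.0358 lay within the spread over days (limma adjusted p = 0.623). In the tail libraries the share at this site was 0.997.

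Contig DN678_c0_g2_i4, 5705 bases long, held 13 of the 51 sites, all on its minus strand, and 5 of them were called. Large differences stood beside sites without one. Position 3307 lies 44 bases from position 3263, and its mean share was 0.995 in head and 0.999 in trunk (difference -0.00356; limma adjusted p = 0.0979). Its median reads were 2179 in head and 12697 in trunk, against 9550 and 13380 at position 3263. Position 2967, which is 296 bases away on the other side, had 0.998 in head and a trunk share within 0.0001 of 1. Positions 1849, 2059, 2266 and 2616 also had mean shares of at least 0.996 in both tissues, and none of the 4 was called. On the logit scale positions 2059, 2967 and 3307 were called lower in head (limma adjusted p = 0.000271, 6.41e-05 and 0.00354), and the quasi-binomial model called them too.

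Position 2616 had a low control share and no difference. Its control share was 0.194 on only 31 reads, close to that of position 3263 on 224 reads. Only 1 of the 6 head libraries and 1 of the 6 trunk libraries had any cut read at position 2616. At position 2266, with a control share of 0.412 on 17 reads, no head read was cut.

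Towards the far end of the contig the differences were intermediate. At position 3806 head ranged from 0.873 to 0.983 and trunk from 0.995 to 0.998 over 6 days, with a difference of -0.0892 (limma adjusted p = 0.00735, and 0.0300 over the 333 sites). Positions 4250 and 4260, which are 10 bases apart with nearly equal read numbers, differed by -0.0483 and -0.101 (limma adjusted p = 0.0204 and 0.0351, but 0.0701 and 0.113 over the 333 sites). These calls are fragile, since 6 of the alternatives ended that at position 4250 and 8 that at position 4260. No trunk read was cut at position 4260, with up to 16966 reads in a library.

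Position 3538 varied most in trunk among the 13 sites. Its trunk share was 0.481, 0.647, 0.772, 0.712 and 0.802 on days 0, 1, 3, 5 and 7, and its head share 0.534, 0.556, 0.665, 0.502 and 0.710. Head was above trunk on day 0 and below it on the other 4 days, and the difference of -0.0894 was not called (limma adjusted p = 0.121). Without day 0 it was -0.125 and was called (limma adjusted p = 0.0274). At position 1596 head lay between 0.931 and 0.972 on days 0 to 7 and at 0.591 on day 10, on 88 reads. Its difference was -0.0798 with that day and -0.0148 without it, and was not called (limma adjusted p = 0.332).

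**Figure D4:**
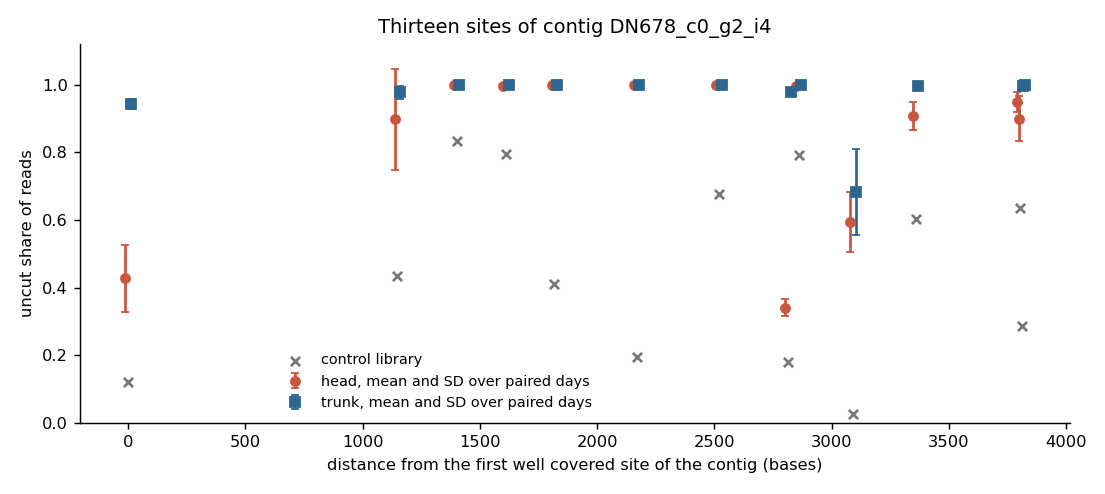
Mean uncut share (vertical axis) of the 13 sites of contig DN678_c0_g2_i4, by distance in bases from the first of them. Red circles are head and blue squares trunk, with the SD over paired days, and grey crosses are the control; head falls far below trunk at 2 sites, while several sites between them sit near 1 in both tissues.

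Contig DN1290_c0_g1_i7, 3433 bases long, held 6 sites, 5 on the minus strand, and 4 were called. Beside position 1951, the called differences were small: -0.0470 at position 1579, -0.0256 at position 1781 and -0.0224 at position 1999 (limma adjusted p = 0.00735, 0.0169 and 0.0212). The call at position 1781 ended without day 3, and that at position 1999 without day 0, 1, 3 or 5 (limma adjusted p from 0.0554 to 0.0741 at the latter). Only position 1579 of these 3 also passed over the 333 sites (limma adjusted p = 0.0364). Position 1999 lies 48 bases from position 1951, and its head share of 0.964 ± 0.0109 (SD, n = 5 days) was close to its trunk share of 0.986 ± 0.00204. Its median reads were 253 in head and 914 in trunk, against 1062 and 1493 at position 1951.

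Position 2022, another 23 bases on, went the other way on 3 of 4 days, with 0.903 in head and 0.866 in trunk. That difference of 0.0369 was not called (limma adjusted p = 0.377). Position 1045, on the plus strand, was lower in head on all 6 days, with ranges that overlapped and a difference of -0.0490 (limma adjusted p = 0.0504), which passed under 5 of the alternatives. The sites of this contig therefore spanned -0.434 to 0.0369.

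Of 23 neighbouring pairs on 1 contig and strand, 8 lay within 50 bases, and some of these differed in the same manner. On DN182285_c0_g1_i2, position 280 was at 0.941 in head and 0.999 in trunk (difference -0.0580; limma adjusted p = 0.00533, but 0.0701 over the 333 sites), while no read was cut in either tissue at position 317, 37 bases away. On DN2841_c0_g1_i3, position 314 was at 0.930 in head against a trunk mean just under 1 (difference -0.0699; limma adjusted p = 0.0212), and position 342, 28 bases away, had no cut head read. Over the 333 sites the difference at position 314 was -0.0455 and did not pass (limma adjusted p = 0.225). Other close pairs were alike: no read was cut at DN2794_c0_g1_i2 positions 293 and 310, and DN155747_c0_g1_i1 positions 554 and 581 differed by 0.0150 and 0.00623 between tissues. With 1 value per contig, the mean over its sites, 17 of the 26 contigs (65.4%) were lower in head and 1 (3.85%) was higher by limma at an adjusted p of 0.05. The higher one is DN1568_c0_g1_i6, whose only site is described above (limma adjusted p = 0.0283 over the contigs).

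The differences were larger where the control was cut more. At the 11 sites with a control share under 0.2, the median difference was -0.383 and 8 sites were called. At the 18 sites from 0.2 to 0.7 it was -0.0552 with 10 called, and at the 22 sites from 0.7 up it was -0.00297 with 7 called. Across the 51 sites the Pearson r of control share and difference was 0.642, given as a description since sites share libraries and contigs. Some control shares are poorly known: control reads ran from 4 at DN1290_c0_g1_i7 position 1579 to 42210 at DN155747_c0_g1_i1 position 339. A site can only vary between its control share plus 0.1 and 1, so a high control share bounds the difference.

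The called sites had fewer head reads than the others. The median of the sites' median reads was 293 in head and 269 in trunk at the called sites, and 1072 and 300 at the 26 others, of which 20 had a cut read. The called sites lay on the minus strand in 16 of 25 cases, beside 32 of all 51.

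The tail libraries, not part of the pairing, read the same sites. Of the 25 called sites, 17 had at least 20 tail reads on at least 3 days. The tail mean lay above the head mean at 16 of these and nearer to the trunk than to the head mean at 15. At those with a difference of 0.3 or more, the tail mean lay between 0.798 and 0.998. The called sites were picked for a low head share, which favours a tail mean above it. Uncalled sites were not counted in this way. Tail lay above head at some of them, as at DN678_c0_g2_i4 position 3538 (0.746 against 0.593). It lay below head at others, as at position 3307 of that contig (0.978 against 0.995). This is a description over shared libraries and was not tested.

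Contigs listed in head alone were more numerous than contigs listed in trunk alone on 5 of 6 days. Contigs were counted when a site had at least 20 reads in the listing tissue and the other tissue's table of that day had no row for the contig. There were 346, 650, 235, 395, 220 and 11 such contigs in head on days 0, 1, 3, 5, 7 and 10, and 3, 3, 17, 32, 42 and 91 in trunk. They made up 77.6, 75.5, 60.6, 59.1, 52 and 29.7% of the head contigs with 20 reads on those days, which numbered 446, 861, 388, 668, 423 and 37. In trunk they made up 14.3, 7.69, 26.6, 23.4, 30.7 and 55.8% of 21, 39, 64, 137, 137 and 163 contigs. By count and by share the order turned on day 10, when head was shallowest. The log2 ratio of head to trunk counts, with 1 added to each, was 3.42 ± 3.64 (SD, n = 6 days; exact 2-sided sign-flip permutation p = 0.09375; adjusted p = 0.09375), so the difference did not pass. Reads at listed sites were fewer in head than in trunk on 4 of 6 days, but they were spread differently over sites. Sites with at least 20 reads numbered 583, 1152, 514, 921, 551 and 52 in head on the 6 days. In trunk they numbered 55, 85, 123, 252, 232 and 282. The part of depth in the contig counts was not tested.

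Over all days and with any number of reads, 1418 of the 2415 head contigs (58.7%) were never listed in trunk, and 281 of the 1278 trunk contigs (22.0%) were never listed in head. On at least 3 days, 632 contigs were listed in head alone, which is 46.4% of the contigs that head listed so often, and 80 in trunk alone (13.2%). Only 82 and 12 of them were listed on all 6 days. The head contigs rested on a median of 15 reads and the trunk contigs on 4.25. The tail tables listed 20.7% of the 632 head contigs and 80% of the 80 trunk contigs. A control with at least 11 uncut reads was present for 47.2% of the head contigs and 90% of the trunk contigs. By the filter read from the values, such a control admits a site on any number of reads.

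The deepest head contigs of this kind were almost uncut. DN465_c1_g1_i4 was listed on 5 days at position 289 with 116 to 216 reads and no cut read, and DN848_c7_g1_i4 on 6 days at position 270 with 56 to 233 reads and no cut read. DN27838_c1_g1_i1, DN2793_c0_g1_i3 and DN4125_c0_g1_i6 had mean shares of 0.999, 0.997 and 0.996. Their controls held few reads, from a median of 3 to 14 per site, so that their levels of 0.166 to 0.496 rest on thin controls.

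The deepest trunk contigs ranged from almost uncut to mostly cut. DN119413_c0_g1_i1 position 182 (minus strand) was listed in trunk on 6 days with a share of 0.987 ± 0.0108 (SD) on 31 to 150 reads. Its control share was 0.0190 on 630 reads, which makes its level 0.968, and tail listed it on 6 days too. DN62406_c0_g1_i1 had 2 sites on all 6 days with a mean share of 0.935, on thin controls of 10 and 7 reads. DN81838_c2_g1_i1 position 268 was mostly cut, at 0.267 ± 0.0417 (SD, n = 4 days) against 0.0128 in the control. DN11794_c0_g1_i2 position 238 lay between 0.244 and 0.354 on 61 to 160 reads, and its other site rested on 1 read. DN70804_c0_g1_i1 had no cut read on 4 days with 2 control reads.

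On contigs that both tissues covered, the count of sites listed in 1 tissue alone ran the other way. These are sites with at least 20 reads in the listing tissue and no row in the other, on a contig and strand where the other tissue had a different site with at least 20 reads that day. Head alone had 5, 16, 9, 29, 15 and 1 such sites on days 0, 1, 3, 5, 7 and 10, and trunk alone 12, 25, 26, 51, 35 and 27. As a share of each tissue's sites with 20 reads on contigs and strands so covered in the other, head-only sites were 11.6, 22.2, 12.7, 18.6, 13 and 4% of 43, 72, 71, 156, 115 and 25. Trunk-only sites were 25.5, 35.2, 33.8, 31.9, 28.0 and 45.8% of 47, 71, 77, 160, 125 and 59. Trunk had more on each day, by count and by share. The log2 ratio of head to trunk was -1.49 ± 1.17 (SD, n = 6 days; exact 2-sided sign-flip permutation p = 0.03125; adjusted p = 0.0417). With a read minimum of 10 it was -0.88, and the call was lost (exact permutation, adjusted p = 0.0625). A site missing from a list may have had a share under its list floor or too few reads. By the filter read from the values, a control with at least 11 uncut reads lets any number of reads list a site. A missing one then had a share under the floor or no read at all, unless a further filter was used.

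In total, 83 sites on 45 contigs were seen so in trunk and 44 sites on 31 contigs in head. On at least 3 days there were 23 in trunk, of which 17 were never listed in head and 20 were listed in tail. In head there were 9, of which 4 were never listed in trunk and 4 were listed in tail. A control with at least 11 uncut reads was present at 56 of the 83 trunk sites and 16 of the 44 head sites. Among the sites seen so on at least 3 days and never listed in the other tissue, it was present at 12 in trunk and 0 in head. On all 6 days, 6 trunk sites and 0 head sites were seen so.

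**Figure D5:**
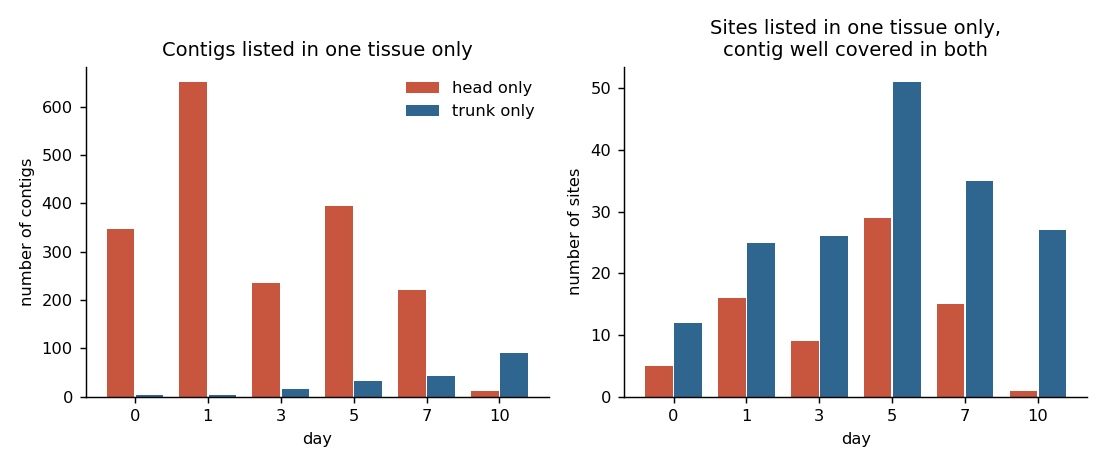
Number of contigs (left) and of sites on contigs covered in both tissues (right) listed in head only (red bars) or trunk only (blue bars), by day, with at least 20 reads in the listing tissue. Head bars are the taller on the left on every day but day 10, and trunk bars are the taller on the right on all 6 days.

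The most frequent trunk sites of this kind lay on the contigs described above. DN678_c0_g2_i4 position 1311 (minus strand) had trunk shares of 0.974, 0.986, 0.973, 0.954, 0.941 and 0.960 on days 0, 1, 3, 5, 7 and 10, on 4549 to 60571 reads. Head never listed it, while the best covered head site of the contig had at least 1035 reads each day. Head reads varied along the contig, with 88 at position 1596 on day 10. The control share at position 1311 was 0.191, and by the filter read from the values a share from 0.291 up could be listed. No head share is known at position 1311. Tail listed it on 6 days at 0.988 ± 0.00515 (SD).

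Position 570 of the same contig and strand behaved alike, with a trunk share of 0.914 ± 0.0267 (SD, n = 6 days), a list floor of 0.372 and no head row. Position 4212 had a trunk share of 0.935 ± 0.110 and a floor of 0.198. At the neighbouring position 4250, head had only 28 to 144 reads on its paired days. On DN1290_c0_g1_i7, position 1275 (minus strand) had a trunk share of 0.779 ± 0.105 on 1327 to 12006 reads, against a control share of 0.0529, and again no head row. DN155747_c0_g1_i1 position 232 had a trunk share of 0.942 ± 0.0169, with a control share of 0.694 on 119748 reads. Together, DN678_c0_g2_i4 held 11 trunk-only and 2 head-only sites, and DN1290_c0_g1_i7 held 9 and 1.

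The head sites of this kind were shallower. DN1290_c0_g1_i7 position 323 was listed in head alone on 5 days with 33 to 61 reads, none cut, but its control held only 7 reads. DN2852_c1_g1_i5 position 3948 (minus strand) had head shares of 0.632, 0.671 and 0.653 on days 1, 5 and 7, on 167 to 255 reads, with a list floor of 0.448. The contig's best covered site in trunk then had 23 to 68 reads. DN2158_c0_g1_i12 positions 286 and 319 and DN678_c0_g2_i4 position 5110 had no cut head read, and trunk listed positions 286 and 5110 on 1 and 2 other days.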

How the data were processed

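Per the labels' protocols, pieces of 10 to 20 planarians were pooled for poly(T)-enriched m6A-REF-seq libraries. The submitters' processing notes name FastQC, fastp 0.20.0 and HISAT2 2.4.2 but no settings, and no source used here gives the counting program. The deposited tables give, per the file headers, counts of uncut and of all reads per site in 1 tissue library and in the control, whose columns also carry the letters fto. The deposited fractions (uncut share and m6A level) were recomputed from the counts and matched in all 23432 rows within 1e-09. The deposited other value, the contig length, was used for description only. The listing filter was read from the values: a level of at least 0.1, and at least 11 uncut reads in the library or the control.

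Head and trunk libraries were paired by day, which the labels give. Differences of the share were fitted with limma 3.58.1 (R 4.3.3; lmFit and eBayes on 1 difference per day, at least 20 reads on each side). Sites with no cut read got a p of 1 and stayed in the Benjamini-Hochberg adjustment at 0.05. The same fit with no read minimum was added after seeing the data. Single values per day were tested by exact sign flips over 6 days (64 flips), adjusted over 4 tests, with numpy 2.4.6, pandas 2.3.3 and scipy 1.17.1. On 500 simulated sites, limma called 100% of those shifted by 0.3, 71% of those shifted by 0.1 and 1% of those unchanged. These percentages hold for the simulated sites only. No shift between 0 and 0.1 was simulated, while 13 of the called real sites differed by less than 0.1. Of the real sites, 32 had a trunk mean of 0.99 or more. Over all 51 sites, the median SD over days was 0.0220 in head and 0.00276 in trunk. The rate of false calls at the real sites was not measured. Other read minimums, day minimums, scales and models, and leaving out each day, were tried. Named sites are the 10 largest called differences of 1 sign on every day, the uncalled sites of 1 sign in the other direction, all sites of the 2 contigs with the most, and the 5 deepest or most frequent 1-tissue contigs and sites per tissue. The members and these rules were chosen with earlier results of these data known. No gene name or sequence was used.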

Additional observations from a re-analysis of the deposited data

Results flagged for a closer look

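In 13 of 52 groups of 4 to 6 libraries, 1 library lay far from the others by Dixon's criterion, which chance meets in about 1 in 20 groups. Many of these groups hold shares close to 1, where a single cut read sets a library apart. The percentage of sites with a cut read at matched reads was 55.9 in head on day 10, against 75.8 to 80.4 on the other days. At DN678_c0_g2_i4 position 1596 the head share of day 10 was 0.591, against 0.931 to 0.972. At DN1290_c0_g1_i7 position 1951 the head share of day 5 was 0.465, against 0.270 to 0.301. At DN11867_c10_g1_i1 position 745 the trunk share of day 3 was 0.698, against 0.855 to 0.9. At DN16393_c0_g1_i2 position 820 the trunk share of day 5 was 0.993, and at DN155747_c0_g1_i1 position 554 the head share of day 10 was 0.996. At DN1290_c0_g1_i7 position 1579 the trunk share of day 1 was 0.9988. On DN678_c0_g2_i4 the head share of day 5 was 0.9983 at position 1849 and 0.99983 at position 2616. On that contig the trunk share was 0.99988 at position 2616 on day 3, 0.99996 at positions 2266 and 2967 on day 10 and 0.984 at position 4250 on day 1, where the other days were at 1.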

How the results depend on the processing

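The 25 sites lower in head became 16 of 40 with a read minimum of 50, 5 of 14 when all 6 days were asked for, and 13 to 26 when each day was left out in turn (13 without day 3). The 0 sites higher in head became 1 with at least 4 paired days, without the contig with the most sites, and with 1 value per contig. They became 2 on the logit scale, with the quasi-binomial model, with no replicate block and with adjustment over sites with a cut read, and 0 to 2 without a day. Pairing is by day: with no replicate block the mean difference stayed at -0.0893 (exact permutation over 12 libraries, p = 0.00216), with 28 sites lower. With a read minimum of 10, the mean difference was -0.0734, the cut percentage difference 24.1 and the log2 ratio of 1-tissue sites -0.88 (exact permutation, adjusted p = 0.0625 each). The cut percentage difference with reads as deposited was 21.2. Without a day, the mean difference ran from -0.0933 to -0.0866, the cut percentage from 25.0 to 29.1, the log2 ratio of contigs from 2.63 to 4.69 and that of sites from -1.66 to -1.02. With 5 days no exact p can go below 0.0625. The r with day turned to -0.101 and -0.473 with read minimums of 10 and 50, -0.758 at sites paired on all 6 days and -0.343 without the contig with the most sites. With reads it turned to 0.747 and 0.0594 in the last 2 of these. Leaving out days was not run for the trend, which needs 6. At DN678_c0_g2_i4, the differences at positions 1849 and 2616 ran from -0.00029 to 4.8e-05 and from -3.4e-05 to 2.4e-05 without a day, above 0 without day 5, and position 2266 became -1.86 on the logit scale, which follows read numbers where no head read is cut. Of the other values at single sites, 388 kept their direction and call, 28 lost and 21 gained a call. The causes were not tested.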
